A study of Homo sapiens with 8 samples.

Results

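Collagens, laminins and fibronectin build the extracellular matrix, and integrins are the receptors by which cells hold on to it. The mRNAs of these proteins were compared between RNA co-precipitated with RPS6, a ribosomal protein of the small subunit, and RNA of the same lysates in 4 human cancer cell lines. Members were chosen by name, with earlier results of these data known. They were the collagen chains (COL), laminin chains (LAM) and integrin subunits (ITGA, ITGB) of the deposited gene tables plus FN1, HSPG2 and AGRN. This gave 85 of 57756 listed genes, which were 44 collagens, 12 laminins, 17 integrin alpha subunits, 9 integrin beta entries and the 3 added genes. They carry 84 distinct symbols, since ITGB3 is listed under 2 identifiers at the same locus. All 85 were protein coding in the RefSeq gene table.

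Each cell line gave 1 library from the RNA immunoprecipitation (RIP) with an RPS6 antibody and 1 library from an aliquot of the lysate set aside as input, so there were 4 RIP and 4 input libraries. The lines were Hep3B (hepatocellular carcinoma), HCT116 (colon cancer), DU145 (prostate cancer) and SW1990 (pancreatic cancer), all established lines for which the labels give no treatment. The liver line is called Hep3B here after the sample titles and the study's methods, although the cell line field of the same samples reads Huh7. No library from a control antibody was analysed here. A RIP to input ratio is therefore a share of one library against a share of another, and RNA bound to RPS6 cannot be told apart from RNA that stayed on the beads for other reasons.

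Matrix proteins are secreted, so their mRNAs are translated on ribosomes at the endoplasmic reticulum, where collagen chains are hydroxylated and wound into triple helices and laminin alpha, beta and gamma chains join into cross-shaped heterotrimers. In the basement membrane under an epithelium, laminins and type IV collagen form networks that the proteoglycans perlecan (HSPG2) and agrin (AGRN) tie together. Each integrin is a pair of an alpha and a beta subunit. ITGB1 is the beta subunit shared by most collagen and laminin receptors, whereas ITGB4 pairs with ITGA6 in the hemidesmosome, the anchor of epithelial cells.

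Sequence upstream of 4 members is shown because each pair encodes chains of the same protein and the values below compare them. COL4A1 and COL4A2, the chains of the common type IV collagen heterotrimer, are read in opposite directions from start sites 127 bases apart in the RefSeq promoter table (assembly GRCh38.p14). The bases between both start sites are chr13:110307158-110307283, given on the plus strand, which is the strand of COL4A2. Capitals mark a CCAAT and a GGGCGG.
COL4A1 to COL4A2: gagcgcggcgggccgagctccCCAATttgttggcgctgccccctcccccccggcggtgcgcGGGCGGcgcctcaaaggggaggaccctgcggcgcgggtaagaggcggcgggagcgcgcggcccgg
Of all 35116 promoter windows in that table, 21.1% held CCAAT and 34.6% held GGGCGG, on either strand, in the same number of bases before the start site. LAMA3 and LAMB3 encode the alpha and beta chains of the laminin of epithelial anchoring sites, and both had their highest level in DU145. The 130 bases before their start sites are chr18:23872890-23873019 (plus strand) and chr1:209651375-209651504 (minus strand), and capitals mark TGANTCA, the letters of an AP-1 site, which read the same on both strands.
LAMA3: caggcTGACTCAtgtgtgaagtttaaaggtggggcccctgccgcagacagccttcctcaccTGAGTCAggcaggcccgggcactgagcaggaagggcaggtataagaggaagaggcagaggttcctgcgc
LAMB3: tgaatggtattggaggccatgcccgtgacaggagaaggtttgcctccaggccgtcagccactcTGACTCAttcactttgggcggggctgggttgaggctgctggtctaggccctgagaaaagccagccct
TGANTCA was present in 3.62% of all windows of that length. The LAMB3 window shown was picked from its 3 windows because it held the letters. The table held windows for 59 of the 84 member symbols.

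Members took a larger share of the RIP library than of the input in every line. The share of all fragments that fell on the 85 genes went in Hep3B from 0.435% to 1.18%, in HCT116 from 0.175% to 0.541%, in DU145 from 0.654% to 1.41% and in SW1990 from 0.181% to 0.776%. RIP was thus between 2.16 and 4.29 times input, and no RIP share of a line lay near its input share (95% Wilson intervals, which cover counting error only, ran from 0.652% to 0.656% for the DU145 input and from 0.773% to 0.779% for the SW1990 RIP library).

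Of the 85 members, 68 passed the minimum of a mean of 10 counts over the 8 libraries and were tested. edgeR's quasi-likelihood test with the cell line as a block called 33 of them higher in RIP and 2 lower, ITGB1 and ITGAE, at an adjusted p under 0.05. Over all 19921 genes tested the same fit called 26.5% higher and 24.9% lower, and over the 13564 protein-coding genes 32.3% higher and 26.1% lower. Members were called higher in 48.5% of those tested, with a median log2 fold change of 1.19 beside -0.05 for all genes and 0.13 for protein-coding genes. FPKM (fragments per kilobase of transcript, scaled to 1000000 fragments) was higher in RIP in all 4 lines for 31 members tested and lower in all 4 for 2, where all genes tested gave 30.8% and 23.7% and protein-coding genes 35.8% and 21.7%. Of the 33 called higher, 25 were among those 31. Another 33 members tested were not called, most of them rare, with a median level of 0.367 FPKM beside 12 FPKM for the members called higher.

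Calls rest on 4 pairs, and the differences between lines were large. When the same test ignored which RIP and input library came from the same line, 4 of the 33 calls remained (LAMA5, LAMB2, HSPG2 and ITGB5), and ITGAE remained as the lower call.

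**Figure D1:**
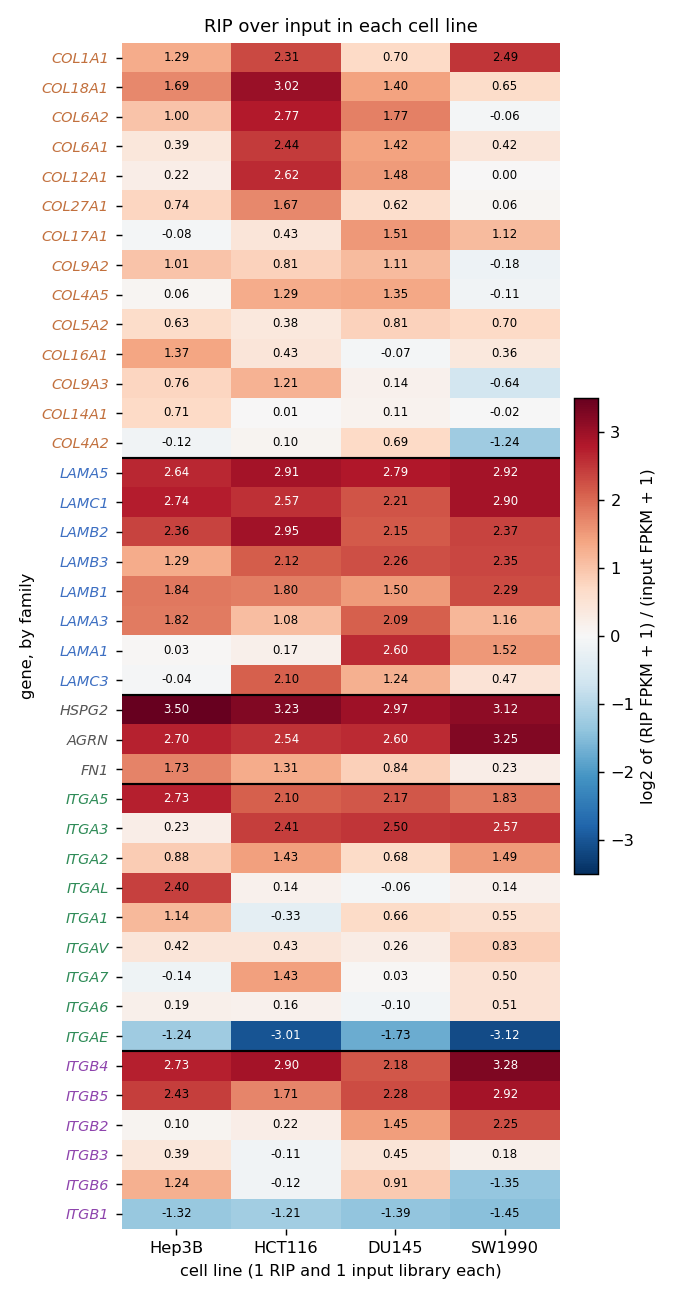
Rows are members averaging 1 FPKM or more, grouped by family, and columns are the 4 cell lines. Colour and printed value give the log2 of RIP over input FPKM with 1 added to both, from 1 library each. HSPG2 and AGRN are above 2 in all 4 lines, ITGB1 and ITGAE are below -1 in all 4, and collagens such as COL12A1 and COL6A2 range from about 0 to above 2.

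By family, 9 of 11 laminins tested were called higher, as were all 3 of FN1, HSPG2 and AGRN, 12 of 30 collagens, 5 of 15 integrin alpha subunits and 4 of 9 integrin beta entries. The shares called higher were 81.8% of the laminins, 40.0% of the collagens, 33.3% of the integrin alpha and 44.4% of the integrin beta entries. All genes tested gave 26.5% higher and 24.9% lower, and protein-coding genes 32.3% and 26.1%, so the integrin alpha share was near that of protein-coding genes. Median log2 fold changes were 2.16 for the laminins, 1.11 for the collagens, 0.90 for the integrin alpha and 0.98 for the integrin beta entries. No collagen and no laminin was called lower by edgeR, and none of the collagens lay lower at an unadjusted p under 0.05 either.

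Within single lines, members at a mean of at least 1 FPKM had median log2 ratios of 0.88 (Hep3B), 1.43 (HCT116), 1.35 (DU145) and 0.65 (SW1990), on the log2 scale of FPKM plus 1. All 16900 genes past the same minimum had medians of 0.15, 0.02, 0.06 and 0.03, and the 11787 protein-coding genes among them 0.30, 0.16, 0.16 and 0.19. At least 2-fold higher in RIP were 20, 25, 23 and 18 of the 41 members, where 22.8%, 22.4%, 22.1% and 23.8% of all genes reached that size. At least 2-fold lower were 2, 2, 2 and 4 members, against 13.0%, 16.7%, 17.0% and 19.5% of all genes. With 1 library per arm, these values describe the libraries and carry no test.

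LAMA5, LAMB2, LAMC1 and LAMB1, chains of basement membrane laminins, all rose in RIP. LAMA5 encodes the alpha chain of the widespread epithelial laminin. Its listed locus (chr20:60877148-60942368 in hg19, the build of the deposited coordinates) also holds ADRM1 and other listed genes. LAMA5 was at 18, 19.8, 63.3 and 62.6 FPKM in the inputs of Hep3B, HCT116, DU145 and SW1990. In their RIP libraries it was at 117, 155, 443 and 482 FPKM. Every RIP library lay above every input. The fold change was 9.25 (log2 3.21, SE 0.23, edgeR adjusted p = 1.23e-05), and the ratio varied little between lines, at 2.82 ± 0.13 (SD, n = 4) on the log2 scale of FPKM plus 1.

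LAMB2, a beta chain of basement membrane laminins, was at 26.6, 8.36, 37.6 and 26.2 FPKM in the inputs and at 140, 71.4, 170 and 140 FPKM in RIP, again without overlap between the groups. Its log2 fold change was 2.85 (SE 0.21, edgeR adjusted p = 1.27e-05). LAMC1, the gamma chain found in most laminins, went from 63.9, 10.7, 50.2 and 14.6 FPKM to 432, 68.7, 235 and 116 FPKM, and LAMB1, its frequent partner, from 39.3, 4.84, 10.7 and 7.17 FPKM to 143, 19.3, 32.2 and 38.9 FPKM. Both were higher in RIP in each line, while the ranges of the groups overlapped because the lines differ in level. Their log2 fold changes were 1.90 (SE 0.23) and 1.70 (SE 0.22).

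LAMB3 and LAMA3 belong to the laminin that anchors epithelial cells through ITGA6 with ITGB4. LAMB3 was at 0.534, 2.74, 41.0 and 2.57 FPKM in the inputs of Hep3B, HCT116, DU145 and SW1990 and at 2.74, 15.2, 200 and 17.2 FPKM in RIP. DU145 held the most by far, and each line had more in RIP. LAMA3 was at 2.21, 0.655, 25.1 and 2.42 FPKM in the inputs and at 10.4, 2.51, 110 and 6.65 FPKM in RIP, with DU145 again the highest. Log2 fold changes were 2.3 (SE 0.21) for LAMB3 and 2.16 (SE 0.19) for LAMA3.

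LAMA1, the alpha chain of the laminin of early embryos, had the largest log2 fold change of the laminins, 3.51 (SE 0.44, edgeR adjusted p = 9.05e-05), although it was well measured in DU145 alone. There it went from 5.39 to 37.6 FPKM. Without the SW1990 pair its value was 2.72, below the 3.16 of LAMA5. The other inputs held 1, 3 and 17 of its fragments in Hep3B, HCT116 and SW1990, and their RIP libraries 3, 19 and 455. On the log2(FPKM + 1) scale in limma it did not pass, at 1.08. LAMC3 was also called higher, while LAMA2 and LAMA4 were not and LAMB4 was too rare to test.

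HSPG2 and AGRN, the heparan sulfate proteoglycans of the basement membrane, belonged to the members most raised in RIP. The listed locus of HSPG2 (chr1:22138757-22263790 in hg19) also holds LDLRAD2 and RP11-26H16.1. HSPG2 was at 22.6, 2.62, 9.08 and 4.17 FPKM in the inputs of Hep3B, HCT116, DU145 and SW1990. In RIP it was at 267, 32.8, 78.0 and 44.0 FPKM. Its fold change was 11 (log2 3.45, SE 0.24, edgeR adjusted p = 1.23e-05), and all RIP libraries lay above all inputs. AGRN went from 26.4, 9.60, 69.3 and 75.8 FPKM to 177, 60.6, 426 and 732 FPKM. The groups overlapped in level between lines, and the log2 fold change was 2.89 (SE 0.24).

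AGRN made up 19.9% of the fragments on all members in the SW1990 input and 36.1% in its RIP library. In Hep3B, HSPG2 went from 6.30% to 22.5% of the members' fragments.

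**Figure D2:**
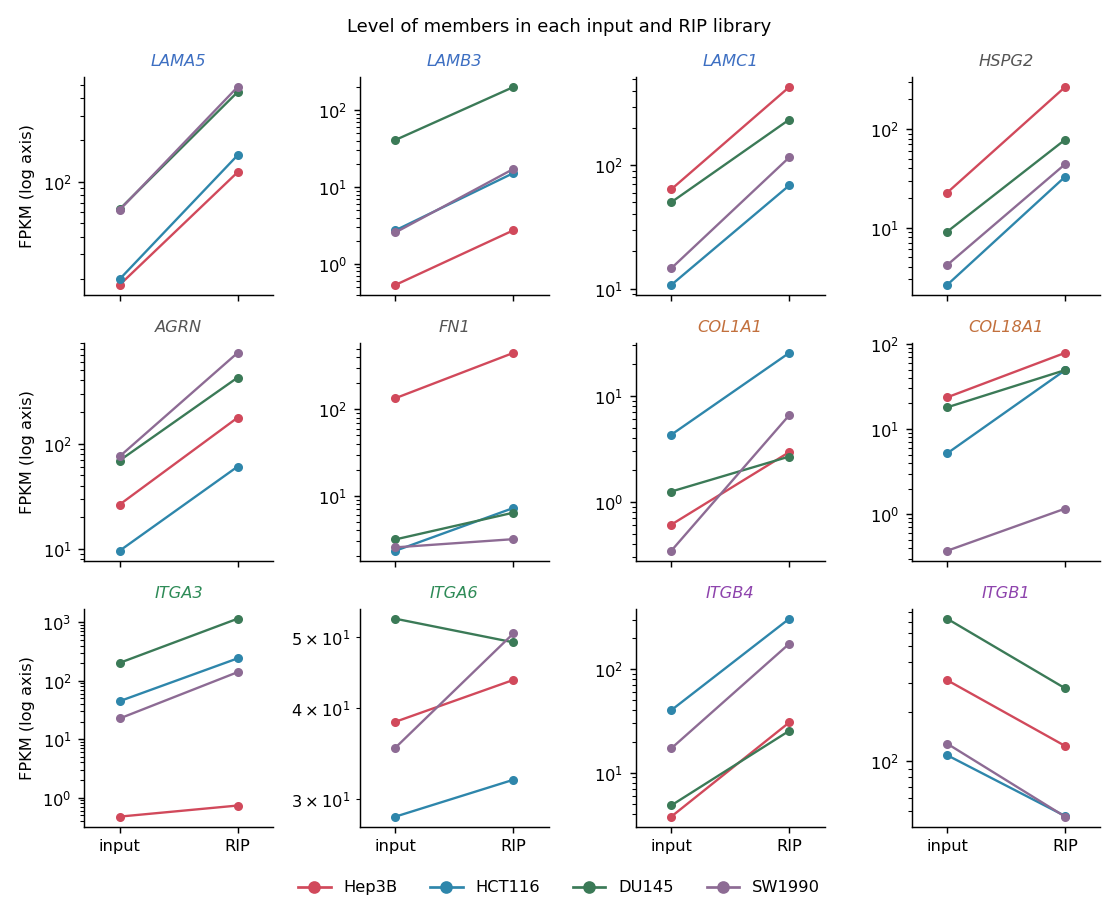
Each panel is a gene, with its FPKM in the input and RIP library of each cell line on a log axis and a line joining the pair of the same cell line. LAMA5, LAMB3, LAMC1, HSPG2, AGRN and ITGB4 climb steeply in all 4 lines, ITGA6 stays between 28.4 and 53.0 FPKM, and ITGB1 falls in all 4.

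FN1 encodes fibronectin, the matrix glycoprotein that hepatocytes also release into plasma. It was at 135 FPKM in the Hep3B input and 451 FPKM in the Hep3B RIP library. The other lines had 2.32, 3.14 and 2.54 FPKM in the inputs of HCT116, DU145 and SW1990 and 7.25, 6.40 and 3.16 FPKM in RIP, so the liver line stood far above the others. The log2 fold change was 1.48 (SE 0.32, edgeR adjusted p = 0.00310), and in SW1990 FPKM and the share of all fragments pointed in opposite directions.

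Among fibrillar collagens, the banded fibres of connective tissue, 3 of 7 tested were called higher (COL1A1, COL5A2 and COL27A1). COL1A1, the main chain of type I collagen, was at 0.610, 4.29, 1.25 and 0.346 FPKM in the inputs and at 2.94, 25.3, 2.67 and 6.55 FPKM in RIP, with HCT116 the highest in both. Its log2 fold change was 1.98 (SE 0.44, edgeR adjusted p = 0.00336). In DU145 the direction depended on the unit, since it had 6.53 of every 1000000 fragments in the input and 5.36 in RIP. COL1A2, the chain that joins COL1A1 in type I collagen, stayed at or under 1.59 FPKM everywhere and was not called (log2 0.83, SE 0.88). COL3A1 was under 1 FPKM in all 8 libraries.

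COL18A1, a basement membrane collagen whose end fragment is endostatin, had the largest log2 fold change of the collagens, 2.45 (SE 0.23, edgeR adjusted p = 2.08e-05). It went from 23.6, 5.18, 18 and 0.371 FPKM to 78.6, 49.2, 49.3 and 1.16 FPKM in Hep3B, HCT116, DU145 and SW1990. COL6A1 and COL6A2 are chains of the beaded microfibril of type VI collagen, and neither shares its listed locus with another gene. COL6A1 was at 10.6 and 21.4 FPKM in the inputs of HCT116 and DU145 and at 62.0 and 58.8 FPKM in RIP, with a log2 fold change of 1.87 (SE 0.23). COL6A2 had a log2 fold change of 2.42 (SE 0.33), and both chains were under 1 FPKM in the Hep3B input. In SW1990 COL6A2 was nearly absent, at 0.0802 FPKM in input and 0.0328 FPKM in RIP, from 6 and 5 fragments.

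COL17A1 and COL7A1, the transmembrane collagen of hemidesmosomes and the collagen of anchoring fibrils, were called higher at 1.98 (SE 0.48) and 1.90 (SE 0.47), at mean levels where COL7A1 never exceeded 1.53 FPKM. COL26A1, COL8A2 and COL4A5 completed the 12 calls, and the last of these had an adjusted p of 0.0350 in edgeR. Leaving out the DU145 pair reduced the collagens called higher to 7, losing COL17A1, COL4A1, COL4A5, COL5A2 and COL8A2. Of the 44 collagens, 14 were too rare to test, and no fragment of COL22A1 or COL6A5 was counted in any library, which allows at most 3 fragments a library.

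In input, COL4A1 and COL4A2 were close in DU145 and far apart in SW1990, from 1 library each. The part of their shared upstream bases in these levels was not tested. COL4A2 was at 0.111, 0, 1.47 and 12.8 FPKM in the inputs of Hep3B, HCT116, DU145 and SW1990, and COL4A1 at 0.117, 0.00918, 1.43 and 0.276 FPKM. In FPKM both were close in DU145, from 579 and 301 fragments, whereas COL4A2 was 46.4 times COL4A1 in the SW1990 input, from 978 and 11 fragments. The Hep3B input held 2 fragments of COL4A2 and 21 of COL4A1, too few to call those levels close. In the RIP libraries COL4A2 was at 0.0199, 0.0715, 2.99 and 4.83 FPKM and COL4A1 at 1.60, 0.0195, 1.66 and 0.349 FPKM.

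COL4A1 was called higher, with a log2 fold change of 1.44 (SE 0.48, edgeR adjusted p = 0.0291), but not without the Hep3B pair (1.0), without the DU145 pair (1.49) or with library sizes from protein-coding genes (1.26). COL4A2 was not called at 0.93 (SE 0.60, edgeR adjusted p = 0.222), passed without the SW1990 pair at 1.94, and had the opposite sign in FPKM. Both genes share a listed locus (chr13:110801317-111165374 in hg19) with COL4A2-AS1, COL4A2-AS2 and a small RNA, and whether the counting used strand is not stated, so reads of a gene and its antisense partner may not be separated.

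**Figure D3:**
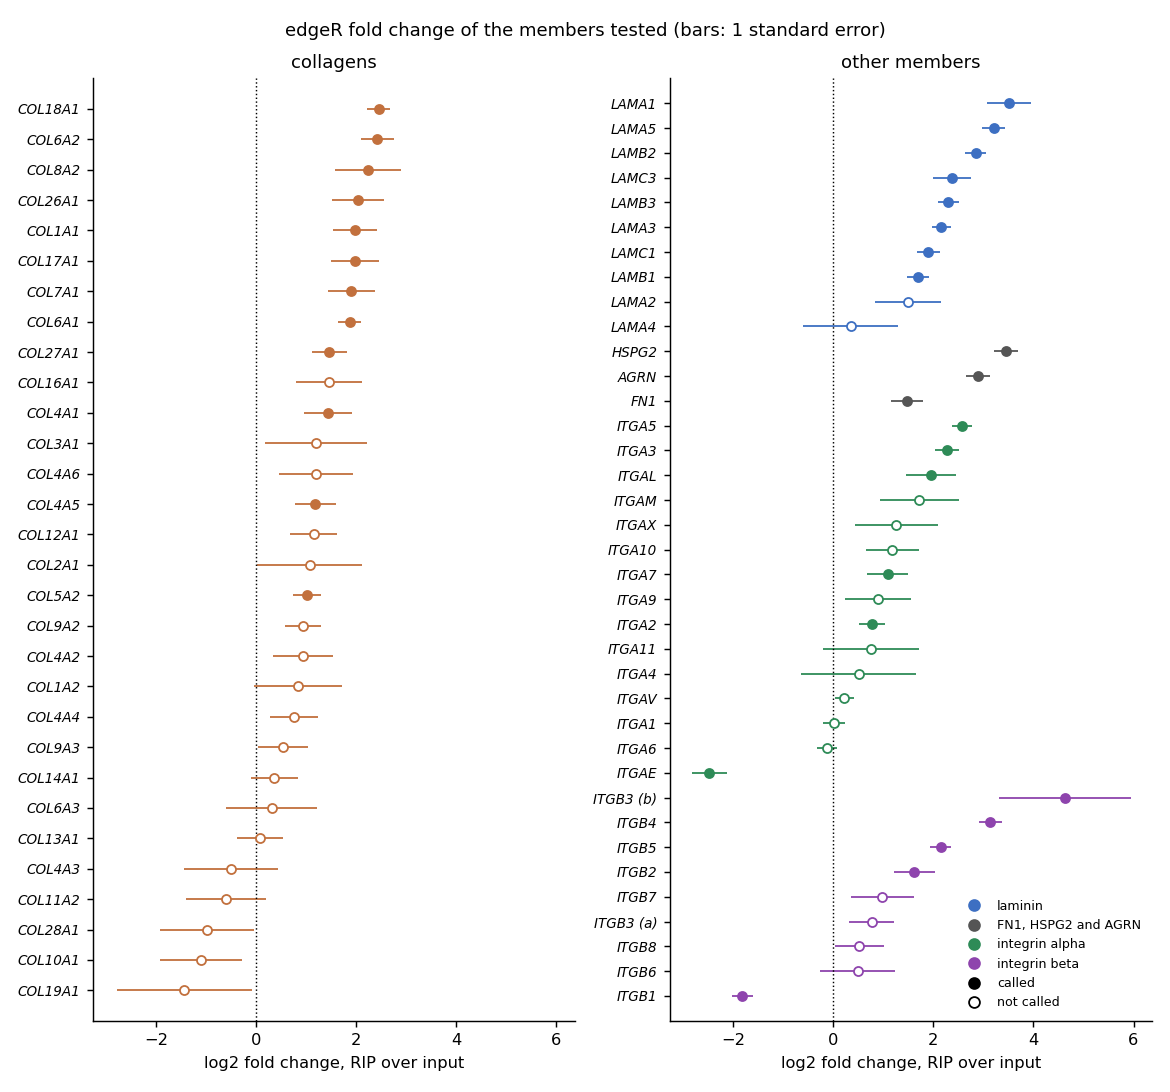
Points are edgeR log2 fold changes of RIP over input for members tested, with bars of 1 standard error, filled where called and open where not; the left panel holds collagens and the right panel the other members. ITGB3 (a) is ENSG00000259207 and ITGB3 (b) ENSG00000259753. Filled laminins run from 1.70 to 3.51 with short bars, and ITGB1 at -1.81 and ITGAE at -2.47 are the filled points left of 0.

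ITGB1, the most abundant member in all 4 inputs, was lower in RIP. It was at 310, 109, 730 and 128 FPKM in the inputs of Hep3B, HCT116, DU145 and SW1990 and at 124, 46.7, 277 and 46.3 FPKM in RIP. Each line lost a similar part, with a log2 ratio of -1.34 ± 0.10 (SD, n = 4) on the FPKM plus 1 scale, although the ranges of the groups overlapped. The edgeR log2 fold change was -1.81 (SE 0.21, adjusted p = 6.06e-05), and it ranged from -1.85 to -1.80 when each line was left out.

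In fragments per 1000000 the loss of ITGB1 was larger than in FPKM, between 4.24-fold and 4.63-fold lower in the 4 lines. FPKM also rests on the transcript length assigned in each library, and this was not examined further. Its share of all members' fragments went from 40.4% to 4.12% in DU145 and from 23.8% to 1.90% in Hep3B. Its listed locus (chr10:33189246-33371030 in hg19) holds 6 other genes.

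ITGA5 and ITGA3, alpha subunits that pair with ITGB1, were higher in RIP. ITGA5, the fibronectin receptor subunit, went from 11.8, 10.1, 21.9 and 1.66 FPKM to 83.8, 46.6, 102 and 8.42 FPKM, with a log2 fold change of 2.58 (SE 0.20, edgeR adjusted p = 1.27e-05). ITGA3, which binds laminins, was at 44.7, 202 and 22.6 FPKM in the inputs of HCT116, DU145 and SW1990 and at 241, 1149 and 140 FPKM in RIP. Hep3B had hardly any, with 0.474 FPKM in input and 0.733 FPKM in RIP. The log2 fold change of ITGA3 was 2.28 (SE 0.24).

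The ratios of these mRNAs within a library shifted. ITGB1 was 2.44, 3.61 and 5.65 times ITGA3 in FPKM in the inputs of HCT116, DU145 and SW1990, and 0.194, 0.241 and 0.332 times ITGA3 in their RIP libraries, while in Hep3B, with little ITGA3, it was 655 times in input and 169 times in RIP. Relative to ITGA5 it went from 26.3, 10.8, 33.3 and 77.1 times to 1.48, 1.0, 2.72 and 5.49 times.

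ITGA2, the subunit of a collagen receptor, passed narrowly at 0.78 (SE 0.26, edgeR adjusted p = 0.0259) and not with library sizes from protein-coding genes (0.59) or without the HCT116 (0.58) or SW1990 pair (0.59). ITGAV, which binds fibronectin and vitronectin, was at 126, 12.1, 32.2 and 11 FPKM in the inputs and at 170, 16.7, 38.7 and 20.4 FPKM in RIP. Its log2 fold change was 0.22, with an interval of 2 standard errors each side from -0.16 to 0.60, and was not called, although limma on log2(FPKM + 0.1) called it higher (0.51, adjusted p = 0.0474). ITGA1, mostly in Hep3B at 42.9 FPKM in input, stood at 0.01 with an interval from -0.43 to 0.46.

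ITGB4 and ITGA6, the subunits of the hemidesmosome integrin, also parted, but here the beta subunit was higher in RIP and the alpha subunit was not called. The listed locus of ITGB4 (chr17:73717407-73761792 in hg19) also holds GALK1. ITGB4 was at 3.77, 40.2, 4.84 and 17.2 FPKM in the inputs and at 30.6, 307, 25.4 and 176 FPKM in RIP. Its fold change was 8.84 (log2 3.14, SE 0.23, edgeR adjusted p = 1.27e-05). ITGA6 was at 38.3, 28.4, 53.0 and 35.3 FPKM in the inputs and at 43.7, 31.9, 49.2 and 50.6 FPKM in RIP. Its groups overlapped, and its log2 fold change was -0.12 with an interval from -0.52 to 0.28. The ratio of ITGA6 to ITGB4 thus went from 10.2, 0.708, 10.9 and 2.05 in the inputs to 1.43, 0.104, 1.94 and 0.287 in RIP.

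Among the 41 members averaging 1 FPKM or more, the pattern most like that of ITGB4 was COL1A1, with a Pearson correlation of log2(FPKM + 1) of 0.90 over the 8 libraries, followed by COL16A1 at 0.80. These values describe libraries that come in 4 pairs of the same line and are not tested. ITGB4 and COL1A1 both had their highest level in HCT116.

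ITGB5, a partner of ITGAV, went from 34.6, 24.9, 37.4 and 27.5 FPKM to 191, 83.9, 185 and 214 FPKM without overlap between the groups. Its log2 fold change was 2.15 (SE 0.21). ITGB2, the beta subunit of leukocyte integrins, was called higher at 1.62 (SE 0.41) and was mainly measured in DU145, at 6.61 FPKM in input and 19.8 FPKM in RIP. In SW1990 it went from 0.697 to 7.05 FPKM, and the call was lost without the DU145 or the SW1990 pair. ITGAL, its partner on lymphocytes, was called at 1.96 (SE 0.50), with 0.876 FPKM in the Hep3B input, 8.93 FPKM in its RIP library and under 1 FPKM elsewhere, and not without the Hep3B pair. Of the leukocyte markers, PTPRC, CD3E and SPI1 were under 1 FPKM in every input, and CD14 reached 1 FPKM in those of Hep3B and SW1990.

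ITGAE, the alpha subunit of the integrin that binds E-cadherin, was the second member lower in RIP. It was at 32.9, 31.4, 48.3 and 59.7 FPKM in the inputs and at 13.3, 3.02, 13.9 and 6.0 FPKM in RIP, with all RIP libraries below all inputs. The fold change was 5.53 in favour of input (log2 -2.47, SE 0.35, edgeR adjusted p = 0.000218). Its locus (chr17:3617921-3704537 in hg19) also holds GSG2, a gene known to lie inside an ITGAE intron, and 2 other listed genes.

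ITGB3, the beta subunit of the platelet and vitronectin receptors, had 2 entries. The entry ENSG00000259753 had the highest log2 fold change of all members, 4.63 (SE 1.31, edgeR adjusted p = 0.0130), from 0, 0, 141 and 0 fragments in the inputs of Hep3B, HCT116, DU145 and SW1990 and 199, 23, 159 and 13 in RIP. The value was 2.86 without the Hep3B pair and 9.42 without the DU145 pair. The other entry had 119, 36, 514 and 4 fragments in the inputs and 159, 18, 475 and 19 in RIP, and was not called (log2 0.77, SE 0.45). Summed over both, ITGB3 had 119, 36, 655 and 4 fragments in input and 358, 41, 634 and 32 in RIP. Since both lie at the same locus, the split between them is uncertain.

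In the inputs, which show the RNA content of the cells, the lines differed in the levels of these mRNAs. Hep3B had the highest input FPKM for 14 of the 41 members, among them FN1, HSPG2, LAMB1, LAMC1, COL18A1, COL5A2, ITGA1 and ITGAV. DU145 was highest for 19, among them LAMA3, LAMB3, LAMA5, COL6A1, COL6A2, ITGA3, ITGA5 and ITGB1. SW1990 led for 5 (AGRN, COL4A2, COL16A1, ITGAE and ITGB6) and HCT116 for 3 (COL1A1, COL4A5 and ITGB4).

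The span between lines was 138-fold for ITGA3 and 40.9-fold for FN1 on the FPKM plus 1 scale, but 1.83-fold for ITGA6 and 1.87-fold for ITGAE. At least 1 FPKM in all 4 inputs was reached by 16 members, and 30 stayed below 1 FPKM in all 8 libraries. FPKM was scaled separately for Hep3B with HCT116 and for DU145 with SW1990, and each line had 1 input library, so neighbouring levels cannot be ordered with a test. By fragments per 1000000, 27 of the 41 members kept the same order of the 4 inputs, and SW1990 was then highest for 2 members in place of 5.

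**Figure D4:**
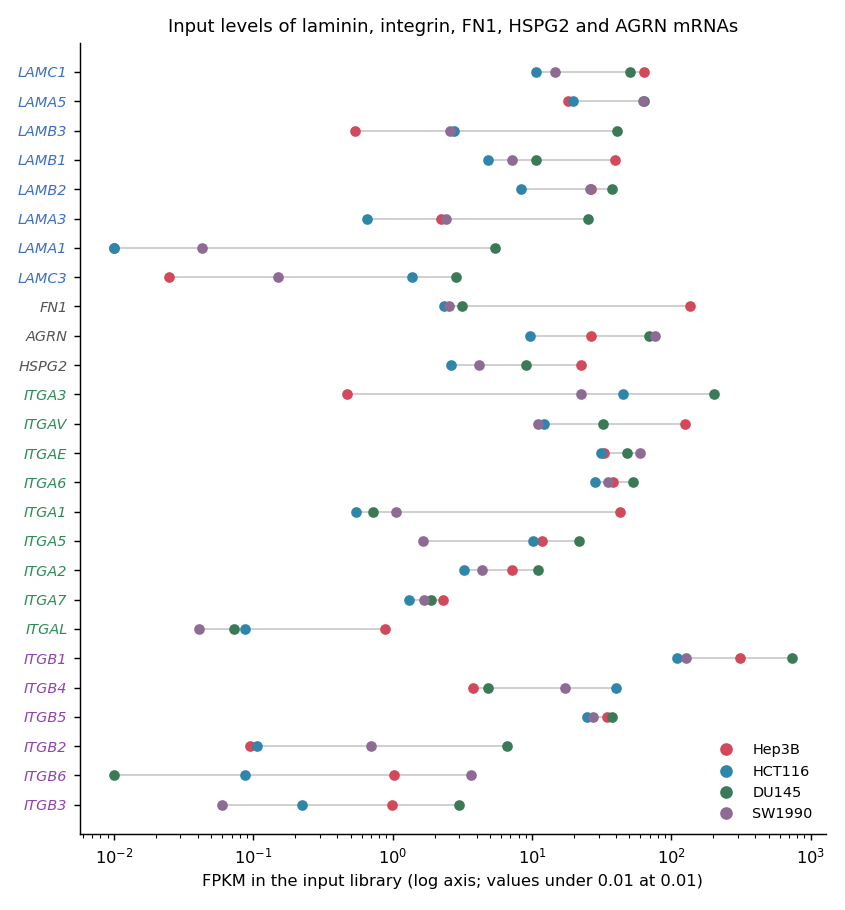
Rows are laminin, integrin, FN1, HSPG2 and AGRN genes averaging 1 FPKM or more, and each point is the FPKM of an input library on a log axis, with values under 0.01 drawn at 0.01. ITGB1 lies rightmost, between 109 and 730 FPKM, ITGA3 spans from 0.474 in Hep3B to 202 in DU145, and ITGA6 and ITGB5 stay within a narrow range.

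Genes around the members in the same pathway were counted from lists. For comparison, 26.5% of all genes tested were called higher and 24.9% lower, and of protein-coding genes 32.3% and 26.1%. The share called higher was 51.7% for collagen processing. Of 29 enzymes and helpers of collagen processing tested, 15 were called higher and 4 lower, with a median log2 fold change of 0.91. PLOD3, a lysyl hydroxylase, had 2.79 (SE 0.19) and LOXL2, a cross-linking oxidase, 2.41 (SE 0.25). P4HA1, a catalytic subunit of prolyl hydroxylase, had -1.13 (SE 0.22), and CTAGE5, which acts in the export of large cargo such as procollagen, -1.09 (SE 0.20). The collagen modifying enzymes thus moved both ways.

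Of 21 other matrix glycoproteins, 14 were called higher, a share of 66.7%, and 1 lower, with a median of 1.41. THBS1, the adhesive glycoprotein thrombospondin, had 2.49 (SE 0.29), at 108 FPKM in the Hep3B input and 593 FPKM in its RIP library. FBLN2 had the largest value, 4.12 (SE 1.02), at no more than 1.13 FPKM. Of 21 matrix proteases and their inhibitors, 6 were higher and 1 lower, a share of 28.6% near the 26.5% of all genes. MMP15, a membrane-bound metalloprotease, had 2.73 (SE 0.19), ADAM15 2.58 (SE 0.25) and ADAM17, the shedding enzyme of TNF, -0.59 (SE 0.18).

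Inside the cell, 27 genes of the adhesion complex were tested and 18 were higher and 2 lower, with a median of 1.48. The share higher was 66.7%, beside the 26.5% of all genes and 32.3% of protein-coding genes. The integrin activators and actin linkers made up most of these, with 12 of 14 called higher. FLNA, the actin cross-linker filamin A, had 3.39 (SE 0.29) and TLN1, talin that activates integrins through the beta tail, 2.93 (SE 0.33). LIMS1, an adaptor of integrin-linked kinase, had -1.28 (SE 0.18). Of 10 other matrix receptors, 7 were higher, a share of 70.0%, and none lower by edgeR. Among the higher were the glypican GPC1 at 2.68 (SE 0.21) and the collagen receptor DDR1 at 2.06 (SE 0.19).

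Length moved with these values. The ratio of deposited count to FPKM, taken relative to the median of tested genes, stood for the length behind each value, and its median was 2.06 for the members tested and 1.14 for protein-coding genes. Across the 13560 protein-coding genes with a value, length and log2 fold change had a Spearman rho of 0.33, and across the 68 members 0.24. These are descriptions across genes, which are not independent replicates.

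The longest 25% of protein-coding genes held 46 of the 68 members, and 27 of these were called higher. In that class 47.0% of all protein-coding genes were called higher, with a median log2 fold change of 0.73 beside 1.45 for the members. In the 3 shorter classes of 25% each, 0 of 3, 3 of 7 and 3 of 12 members were called higher, where 16.1%, 31.2% and 34.8% of protein-coding genes were. ITGAE, called lower, had a length of 0.294 on this scale and was among the 3 members of the shortest class. There the median log2 fold change was -0.56 for protein-coding genes and 0.98 for those 3 members. The part of length in the members' values was not tested, and the length of the genes on the pathway lists was not examined.

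**Figure D5:**
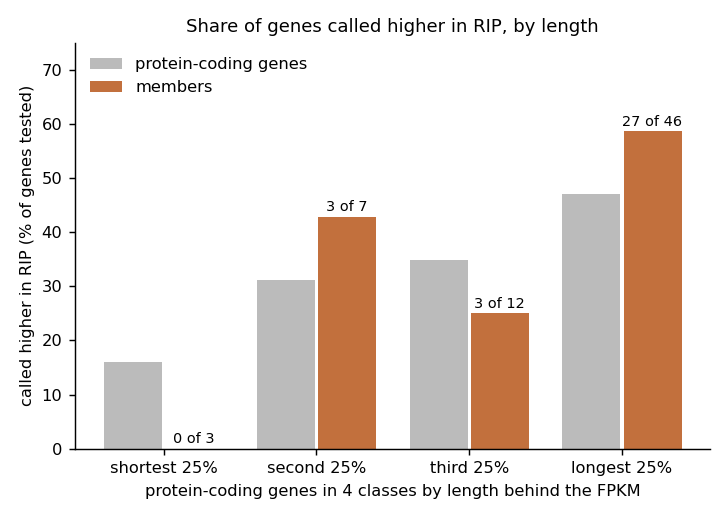
Bars give the percent of genes tested that edgeR called higher in RIP, in 4 classes of protein-coding genes from the shortest 25% to the longest 25%, for all protein-coding genes in grey and members in brown, with member counts printed. The grey bars go from 16.1% to 47.0%, and most members, 46 of 68, fall in the longest class.

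Libraries held 35796164 to 54209632 fragments for the inputs and 34630363 to 42610074 for RIP. FPKM and fragments did not always point the same way. Among members averaging 1 FPKM or more, with at least 20 fragments in the larger library, the direction was opposite for 6 of 35 in Hep3B, 2 of 35 in HCT116, 6 of 38 in DU145 and 3 of 34 in SW1990, and ITGAV and ITGA2 were among them. All 8 liver markers reached 1 FPKM in the Hep3B input, and at most 2 did in another input. Pancreatic duct markers reached it for 5 of 6 in SW1990 and 4 of 6 in HCT116, where their sum was larger (577 against 259 FPKM). Colon markers reached it for 1 of 6 in HCT116, 4 of 6 in SW1990 and 2 of 6 in Hep3B. Their sums were 6.37, 97.9 and 170 FPKM, so the liver line had the largest. The prostate marker KLK3 was under 1 FPKM in every input, DU145 included, as were the colon markers CDX1 and GPA33. Fibroblast markers, which bear on collagens, reached 1 FPKM for 3 of 6 in the Hep3B input (summed 34.7 FPKM, 59.9 in RIP) and for none in the other inputs (summed 0.0722 to 0.786 FPKM), with DCN, FAP and THY1 under 1 FPKM in every input. Their part in the Hep3B values was not tested.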

How the data were processed

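Lysates of 4 cell lines were immunoprecipitated with an RPS6 antibody (Magna RIP kit), and RIP and input RNA went into Illumina TruSeq Stranded Total RNA libraries. The series text and the study's methods name different Illumina sequencers. The submitters' processing notes name CASAVA 1.8 and TopHat2 2.0.9 with hg19 (human genome version 19). The counting program, its annotation and its use of strand are not given in the sources used here. Of the 85 members, 60 share their listed locus with another listed gene, so their reads may not be fully separated. The authors deposited estimated counts and FPKM per gene for each library, in 2 tables scaled separately (Hep3B with HCT116, DU145 with SW1990). Pairwise tables repeat this FPKM beside the authors' own fold changes and p-values, which were not used. Deposited counts were whole multiples of a step in each library (90.2% to 92.6% of values, within 0.02 of a fragment), and dividing by it gave fragments.

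Counts were rounded. Genes averaging 10 or more counts over 8 libraries entered edgeR 4.0.16 (R 4.3.3): TMM, glmQLFit and glmQLFTest, the cell line as a block, Benjamini-Hochberg over all 19921 genes, threshold 0.05. The pairing comes from the design: RIP and input of a line deviated together from their group means (r 0.84 to 0.89). Values with other lines were at most -0.04, but centring each group on its mean pushes these below 0, so they are no separate evidence. No source used here says that a line was cultured more than once, so p-values measure the spread between these 4 pairs. Ratios within a line are log2((RIP FPKM + 1)/(input FPKM + 1)). Alternatives used DESeq2 1.42.0, limma 3.58.1 on log2 FPKM with a pseudocount of 1 or 0.1, other minimums, library sizes from protein-coding genes, recovered fragments and each line left out. Tests were checked on simulated data. Wilson intervals came from statsmodels 0.14.6.

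Named genes were 20 fixed ones, the 8 members with the highest and lowest log2 fold change among calls with the same direction in 4 lines, the 3 with the highest input FPKM in each line, those without a fragment, and 2 each way per pathway list. Further members were named to account for counts and were chosen after their values were seen. Members and lists were chosen with earlier results of these data known. Protein lengths were planned but not used here, and the length behind the FPKM took their place. Promoters are RefSeq's, GRCh38.p14. Some genes that enter the counts are not reported here by name, in text or figures.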

Additional observations from a re-analysis of the deposited data

Results flagged for a closer look

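COL4A1 stood out in Hep3B, with a log2 RIP to input ratio of 1.22, and the gap to the nearest other line made up 0.91 of the range over the 4 lines. In fragments per 1000000, RIP was 4.43 times input there, from 21 and 90 fragments, and 1.07, 1.76 and 2.01 times in HCT116, DU145 and SW1990. ITGA3 stood out in the same line, at 0.23, with a gap of 0.93 of the range, from 27 input and 73 RIP fragments. At such low FPKM, adding 1 before the ratio shrinks it: in fragments per 1000000 RIP was 2.79 times input in Hep3B and 3.66, 3.96 and 4.68 times in the other lines. These were 2 of 25 genes examined in this way, and chance marks about 1 in 20. ITGB6, an epithelial integrin subunit, pointed in opposite directions, with log2 ratios of 1.24 in Hep3B and -1.35 in SW1990, a difference that was not tested. In fragments per 1000000 its RIP to input ratios were 1.32 in Hep3B and 0.942 in SW1990, the latter from 92 and 90 fragments, so the fall in SW1990 from 3.64 to 0.816 FPKM was not matched by its fragments.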

How the results depend on the processing

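ITGB1 and ITGAE stayed lower in RIP and HSPG2, LAMA5, LAMB2 and ITGB5 stayed higher under every alternative run that tested them, except that ITGB1 did not pass without the replicate block. With no replicate block, calls were 4 higher and 1 lower for the members, 0 for collagens, 2 for laminins, 0 for integrin alpha, 1 higher and 0 lower for integrin beta, 1 for FN1, HSPG2 and AGRN, 8 and 0 for collagen processing, 1 and 0 for glycoproteins, 2 and 0 for proteases, 9 and 0 for the adhesion complex and 3 for other receptors, and over all genes 1427 higher and 1344 lower. limma on log2(FPKM + 1), with 41 members tested, called 19 members higher, 4 collagens, 3 integrin alpha and 2 integrin beta subunits, 6 glycoproteins higher and 0 lower, 0 proteases lower and 1 adhesion gene lower, with COL4A2 at -0.14 and ITGA6 at 0.19. With 0.1 in place of 1 it called 5 collagens, 6 glycoproteins higher and 0 lower, 3 proteases higher and 0 lower and 1 adhesion gene lower, with COL4A2 at -0.11 and ITGA6 at 0.19. Library sizes from protein-coding genes moved the median of all genes from -0.05 to -0.25 and left 29 of the 33 higher calls and 3 integrin alpha calls, losing COL4A1, COL4A5, ITGA2 and ITGA7. Without a count minimum 0 glycoproteins were lower. DESeq2 called 36 members higher and 2 lower, and kept all 33. Leaving out each line gave 27 to 33 members higher and 2 lower, 7 to 15 collagens higher (7 without DU145), 3 to 5 integrin alpha higher (3 without HCT116 or SW1990), 11 to 14 glycoproteins higher and 0 to 1 lower, and 0 to 1 proteases lower. The median log2 ratio in SW1990 was 1.33 with 0.1 added. With no minimum the medians were 0.12, 0.25, 0.29 and 0.06 in Hep3B, HCT116, DU145 and SW1990, and with at least 5 FPKM they were 1.29, 2.11 and 1.53 in Hep3B, HCT116 and SW1990. By fragments per 1000000 SW1990 was highest for 2 members. In alternatives added after seeing the data, the longest 25% of protein-coding genes held 0 members lower, and of the 20 members alone at their listed locus 8 were higher and 0 lower. The cause of these changes was not tested, apart from the fewer genes tested in the limma fits and subsets. Depth limits the rare members: the 27 tested members under 1 FPKM had a median standard error of 0.79 and 5 calls, beside 0.23 and 10 calls for the 11 at 50 FPKM or more.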
